A study of Mus musculus with 15 samples.

Results

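The small (40S) ribosomal subunit is built on the 18S rRNA by a set of ribosomal proteins, each encoded by its own nuclear gene. The mRNAs of these genes are short, are among the most heavily translated in a growing cell, and typically begin with a 5′ terminal oligopyrimidine (TOP) tract, a C followed by a run of pyrimidines, through which mTORC1 signalling and the La-related protein Larp1 set how much they are translated. Pluripotent stem cells divide quickly and need a steady supply of new ribosomes. The data described here are ribosome-protected fragments (RPFs, the stretches of mRNA shielded by a ribosome from nuclease) on the mRNAs of 31 small-subunit proteins in mouse embryonic stem cells (mESCs).

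The 31 mRNAs were chosen by name from the 21727 transcripts of the count table: the GENCODE M21 symbols made of Rps with a number or with a, plus Fau, which encodes the eS30 protein as a fusion, and without Rps27. Of these, 30 had counts, 1 (Rps12) was at 0 in all 15 libraries, and 29 passed the filter on low counts, Fau and Rps12 being left out of the tests. The lines derive from E14Tg2a.4 mESCs and comprised Rps27-FLAG cells, Rps27l-FLAG cells and untagged wild-type (WT) cells, with 3 single-cell-derived clones of each. In the tagged lines CRISPR editing had placed a 3xFLAG tag with a linker before the stop codon of both copies of endogenous Rps27 or Rps27l, paralogs that encode 2 forms of the eS27 protein, and a ribosome carries one form or the other. Lysates of cycloheximide-treated cells gave total RPFs from all 9 clones, and anti-FLAG immunoprecipitation (IP) gave RPFs of the tagged ribosomes from the 6 tagged clones, making 5 conditions of 3 libraries. The question put to them was whether ribosomes with either paralog are found on different mRNAs.

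The libraries held 3972152 to 8064166 counts over coding sequences, with 3972152 to 6673935 in the IP and 6313827 to 8064166 in the total libraries. As these are bulk lysates, fewer cells translating an mRNA and fewer ribosomes on it per cell cannot be told apart. All libraries are of RPFs, so the amount of an mRNA and the ribosomes on each copy cannot be told apart either. All 8 stem cell markers examined, among them Pou5f1, Sox2 and Nanog, had a median above 2 CPM (counts scaled to a common library size), with a summed level of 3077 to 3760 CPM over the 15 libraries, whereas 5 fibroblast markers summed to 9.21 to 33.4 CPM and 6 markers of differentiated cells to 9.10 to 25.2 CPM. Of the fibroblast markers, Thy1 and Col1a1 had medians of 13.0 and 4.12 CPM, and Col3a1 and Dcn of 0.130 and 0.133 CPM. Among the markers of differentiated cells, Pax6 alone exceeded 2 CPM, with a median of 11.4. The tagged Rps27 gene could not be checked, because its transcript was at 0 in all 15 libraries and all 165 of its 28 nt windows also occur in Rps27rt. Rps27l was counted 655 to 1151 times per library. Replicate libraries of a condition differed by more than counting error (chi-square per degree of freedom of 1.78 to 10.3). IP and total RPFs of the same line and number came from the same clone, and libraries of one number, in all lines, had been pooled for library construction.

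Only fragments that matched a single reference transcript had been counted, and mammalian genomes hold many processed copies of ribosomal protein genes, so each 28 nt window of the counted part of each coding sequence (CDS) was compared with all other transcripts of the table. The windows that follow are shown because they show how little sequence sets some members apart from other transcripts. Each pair gives a member and a near-identical copy, read 5′ to 3′ along the transcript in GRCm38, and capitals mark the base that differs.
Rps18 (exon 3, chr17:33952495-33952522, minus strand): gaactcacggaggaTgaggtggagcgag
Gm10260 (chr13:97760390-97760417, minus strand): gaactcacggaggaCgaggtggagcgag
Rps7 (exon 3, chr12:28635427-28635454, minus strand): aaggcgcagctgcgGgaactcaacatca
Gm6472 (chrX:152909985-152910012, minus strand): aaggcgcagctgcgTgaactcaacatca
Rps12 (exon 3, chr10:23786822-23786849, minus strand): actgctctacaagaggtgctgaagaccg
Rps12-ps3 (chr19:59322416-59322443, plus strand): actgctctacaagaggtgctgaagaccg

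Rps18, a protein of the 40S head, shared all 369 of its windows with Gm10260 at up to 2 mismatches. Over the 15 libraries it collected 418 counts and its copy 2. Rps15a was alike, with all 303 windows shared with Rps15a-ps6, 868 counts of its own and 0 for the copy. Rps7, Fau and Rps12 were low too, but with most or all of their windows unique within the count table. All 495 windows of Rps7 and all 312 of Fau were unique among the listed transcripts, yet Rps7 had 876 counts and Fau 10, and Rps12, with 73.1% of its windows unique, had 0. Gm6472 and Rps12-ps3, shown above beside Rps7 and Rps12, are transcripts of the wider GENCODE M21 set and not of the count table. Why any of these members was so low, Rps18 and Rps15a included, was not tested.

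Footprint density, the normalized CPM per kb of counted CDS, puts mRNAs of different length on one scale. In WT total RPFs, the 17 members with at least 80% unique windows and no such deficit lay close together, between 1502 CPM per kb for Rpsa and 2174 CPM per kb for Rps29, with a median of 1905. The highest was 1.45 times the lowest. They stood at ranks 8 to 54 among 10082 transcripts, whose median density was 25.5 CPM per kb. The limit of 80% and the setting aside of Rps7, Fau and Rps12 were chosen after the values were seen, and the narrow range is a description.

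Rps29, whose short product binds zinc in the 40S head, was highest at 2174 ± 52.4 CPM per kb in WT (SD, n = 3). Rps28, likewise a small head protein, followed at 2154 ± 26.2 and Rps27a, which is made as a fusion of ubiquitin with eS31, at 2079 ± 178. Rps3, which lies at the mRNA entry channel, was in the middle at 1819 ± 63.1. Of the 16 neighbouring pairs in this order, 15 overlapped in their libraries, and only Rps14 (1726 ± 41.1) lay above Rps15 (1565 ± 48.2) in every WT library. The order among these mRNAs was thus within the spread of 3 libraries, apart from that step and the distance between the ends.

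The 11 tested members with under 80% unique windows ran from 1205 ± 52.6 CPM per kb for Rps24 down to 10.9 ± 3.71 for Rps18, with a median of 333. Rps24, with 32.0% unique windows, and Rps20, with 43.7% and a density of 954 ± 63.2, were nearest to the first group. Fau, at 0.833 ± 0.725 CPM per kb, was the lowest member with counts. Over the 31 members, the share of unique windows and the density had a Spearman coefficient of 0.63, given as a description since all densities come from the same 3 libraries. It depended on the transcripts compared. Against all transcripts of GENCODE M21 the coefficient was 0.18 at up to 2 mismatches and -0.05 for exact matches, and the exact set of transcripts used for alignment was not known here. Fragments that match several transcripts were not counted, so these densities are lower bounds and do not rank the members. Rps12, with 0 counts of 95516427 nuclear-encoded counts in the 15 libraries, had an upper limit of 0.0314 CPM (3 counts over all libraries, counting error only).

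**Figure D1:**
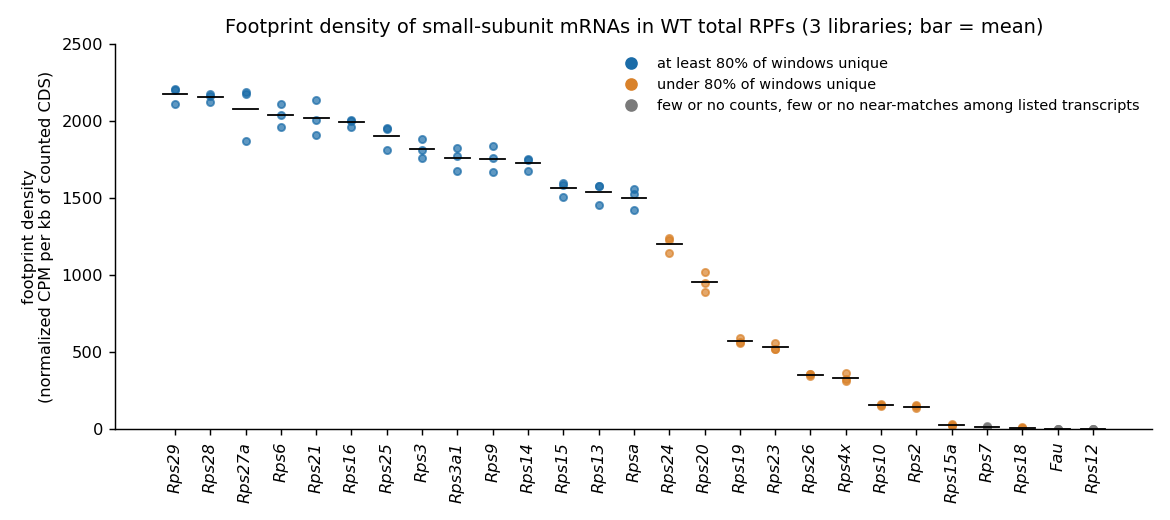
Footprint density (vertical axis, normalized CPM per kb of counted CDS, linear from 0) of 27 of the 31 small-subunit mRNAs in the 3 WT total RPF libraries (points) with their mean (bar), ordered by the mean and coloured by the share of 28 nt windows found in no other listed transcript. The 14 blue mRNAs lie between 1502 and 2174, and the orange and grey mRNAs fall from 1205 to 0.

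**Figure D2:**
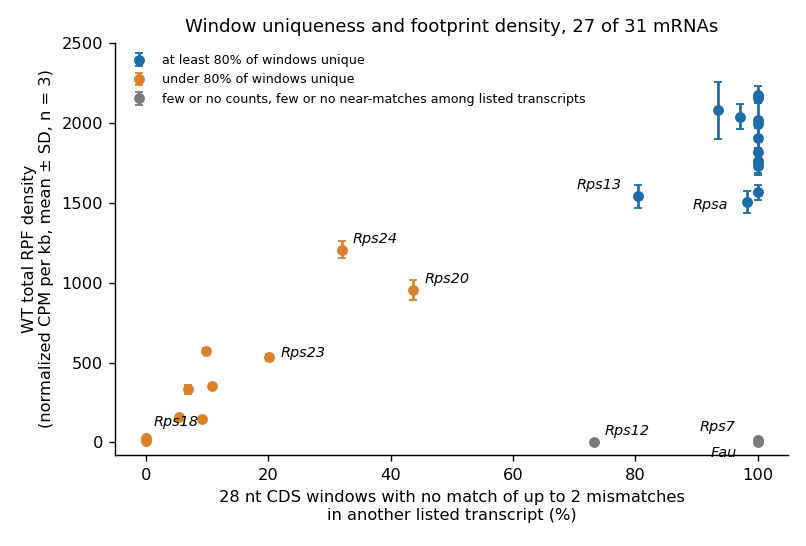
Share of CDS windows with no match of up to 2 mismatches in another listed transcript (horizontal axis, %) against mean WT footprint density (vertical axis, normalized CPM per kb; bars are SD, n = 3) for 27 of the 31 mRNAs. Density tends to be higher where the share of unique windows among the listed transcripts is higher, with exceptions such as Rps20, which lies below Rps24. Rps7, Fau and Rps12 (grey) are near 0 although most of their windows are unique.

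The starts of these mRNAs were read from RefSeq (GRCm38.p6) to see the feature after which TOP mRNAs are named. Of the 31 members, 23 had an entry, with 27 annotated starts. In 6 of the 27 (22.2%), the first transcribed base was C and the next 4 were each C or T on the transcribed strand, as in 2.51% of all 32851 annotated starts. The 3 shown have the first base of the tract at the annotated start, and capitals mark the whole tract.
Rps6 (chr4:86857348-86857372, minus strand): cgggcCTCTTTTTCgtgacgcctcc
Rps18 (chr17:33955646-33955670, minus strand): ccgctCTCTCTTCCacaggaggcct
Fau (chr19:6057942-6057966, plus strand): cacttCTTCCTCTTTCTTgactcca
In the other 21 starts the letters did not stand at the annotated base, which says nothing of whether the mRNA is a TOP mRNA.

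The first comparisons asked whether tagging either paralog altered the RPFs of small-subunit mRNAs in the cell as a whole. The 31 mRNAs took nearly the same share of total RPFs in every line. In replicates 1, 2 and 3 the share of nuclear-encoded counts was 1.468%, 1.515% and 1.523% in WT, 1.412%, 1.496% and 1.615% in Rps27-FLAG, and 1.483%, 1.441% and 1.534% in Rps27l-FLAG cells. The 3 lines overlapped. The means differed by 0.00572 percentage points between Rps27-FLAG and WT (two-sided exact permutation p = 1), by -0.016 between Rps27l-FLAG and WT (p = 0.7, exact) and by -0.0217 between the tagged lines (p = 0.8, exact). With 3 libraries against 3 the smallest p this test can give is 0.1, and after adjustment over 6 comparisons the values were 1, 0.96 and 0.96 (exact permutation tests, Benjamini-Hochberg).

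No single member passed the test in total RPFs. By edgeR's quasi-likelihood test, 0 of 29 members were called higher or lower in each of the 3 comparisons at a Benjamini-Hochberg adjusted p under 0.05, where 0.0% of all 10085 transcripts were called higher and 0.0% lower. No member had an unadjusted p under 0.05 in them, beside 2.92%, 5.69% and 5.75% of all transcripts, and DESeq2 and voom also called 0 of 29. With the replicate number as a block the members stayed at 0, where 0.0%, 0.367% and 0.645% of all transcripts were called higher and 0.00992%, 1.06% and 0.714% lower. An unadjusted p under 0.05 was then reached by 1 of 29 members between the tagged lines (15.3% of all transcripts). The log2 fold change was above 0 in 21 of 29 members for Rps27-FLAG against WT, in 7 for Rps27l-FLAG against WT and in 3 for Rps27l-FLAG against Rps27-FLAG, beside 49.7%, 50.8% and 50.8% of all transcripts. The members share their libraries and were not tested as a group. Their median was 0.02 for Rps27-FLAG against WT, -0.04 for Rps27l-FLAG against WT and -0.06 for Rps27l-FLAG against Rps27-FLAG, beside a median standard error of 0.08 per member. Rps3 had 1177, 1213 and 1261 normalized CPM in WT, 1128, 1197 and 1342 in Rps27-FLAG and 1175, 1158 and 1185 in Rps27l-FLAG cells. Its log2 fold change was 0.01 ± 0.06 (SE) for Rps27-FLAG and -0.05 ± 0.06 for Rps27l-FLAG against WT.

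The IP comparisons asked how the mRNAs on tagged ribosomes differ from those on all ribosomes of the same cells. Small-subunit mRNAs held a larger share of the IP RPFs than of the total RPFs in each of the 6 tagged clones. In Rps27-FLAG cells the share was 1.58%, 1.81% and 1.89% in the IP against 1.412%, 1.496% and 1.615% in the total of clones 1, 2 and 3. In Rps27l-FLAG cells it was 1.76%, 1.84% and 1.84% against 1.48%, 1.44% and 1.53%. The Rps27-FLAG groups overlapped, since the IP of clone 1 lay below the total of clone 3, whereas the Rps27l-FLAG groups did not. The mean gain was 0.253 ± 0.0722 percentage points in Rps27-FLAG and 0.326 ± 0.0616 in Rps27l-FLAG cells (SD over 3 clones). With 3 clones a two-sided exact sign-flip test cannot go below 0.25, which both reached (0.75 after adjustment over 6 comparisons).

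**Figure D3:**
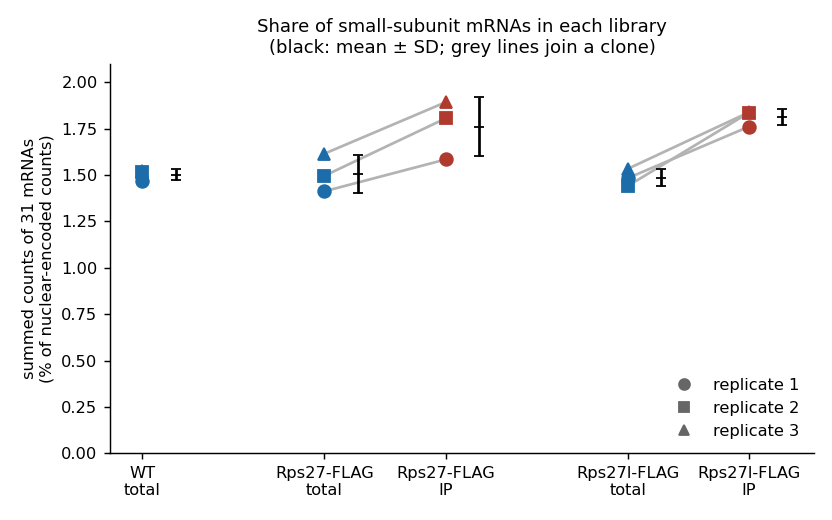
Summed counts of the 31 mRNAs as a percentage of nuclear-encoded counts (vertical axis, from 0) in each of the 15 libraries, with blue for total and red for IP RPFs, marker shape for the replicate, grey lines joining the fractions of one clone, and black bars for mean ± SD (n = 3). All 6 grey lines rise, and the totals of the 3 lines overlap.

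Whether single members passed the test in Rps27-FLAG cells depended on the pairing of clones. With the 6 libraries taken as unpaired, 0 of 29 members were called higher and 0 lower, where 0.327% of all transcripts were called higher and 5.34% lower. DESeq2 called 0 members as well (0.942% of all transcripts higher, 4.85% lower), as did voom (0.208% and 4.88%), and 11 members had an unadjusted p under 0.05 (22.1% of all transcripts). With the clone as a block, 25 of 29 rose and 0 fell, where 18.3% of all transcripts were called higher and 22.9% lower. The median log2 fold change was 0.22 in both, beside -0.01 over all tested transcripts. Within each clone, 26 of 29 members were higher in the IP than in the total, as were 28.9% of all transcripts. Without the block, 23 members were called when clone 1 was left out and 0 without clone 2 or clone 3. Only 2 of 29 had all 3 IP libraries above all 3 total libraries (11.3% of all transcripts).

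In Rps27l-FLAG cells the rise passed the test without the block for most members. There, 17 of 29 rose and 0 fell, where 0.833% of all transcripts were called higher and 2.27% lower, and 26 had an unadjusted p under 0.05 (17.4% of all transcripts), with a median log2 fold change of 0.31 beside -0.03 over all tested transcripts. With the clone as a block, 26 rose and 0 fell, where 12% were called higher and 19.0% lower, and all 17 of the unpaired calls were among the 26. In 26 of 29 members the 3 IP libraries lay above the 3 total libraries (9.11% of all transcripts), and 27 of 29 rose in each clone (23.7%). DESeq2 called 23 members higher without the block (1.95% of all transcripts higher, 2.61% lower) and voom 17 (0.793% and 2.24%). The unpaired calls rested on clones 1 and 2, as 0 members were called without either and 19 without clone 3, whereas the block gave 25 to 26 with any clone left out.

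Rps28 had the lowest p in the blocked Rps27l-FLAG comparison. Its normalized CPM in clones 1, 2 and 3 were 309, 330 and 322 in the Rps27l-FLAG total and 405, 441 and 414 in the IP. In Rps27-FLAG cells they were 317, 334 and 358 in the total and 348, 408 and 446 in the IP. All 3 IP values exceeded all 3 totals in Rps27l-FLAG cells, and in Rps27-FLAG cells clone 1 of the IP lay below clone 3 of the total. The blocked log2 fold change was 0.39 ± 0.03 (SE, adjusted p = 3.03e-17, edgeR) in Rps27l-FLAG and 0.24 ± 0.03 (adjusted p = 8.65e-14) in Rps27-FLAG cells. The log2 ratios of IP to total of the 3 clones had an SD of 0.0277 in Rps27l-FLAG and of 0.100 in Rps27-FLAG cells. The SE and p of edgeR draw on the spread of all tested transcripts and not on these 3 clones alone.

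Rps16, which sits in the 40S head with its tail reaching towards the decoding site, showed 730, 715 and 749 CPM in the Rps27l-FLAG total and 907, 951 and 947 in the IP. It was called also without the block (log2 fold change 0.35 ± 0.04, adjusted p = 0.00763, edgeR), the lowest p of any member there. In Rps27-FLAG cells Rps16 had 693, 761 and 821 CPM in the total and 782, 974 and 972 in the IP. The IP of clone 1 again lay within the range of the totals, and the blocked change was 0.26 ± 0.03 (adjusted p = 1.63e-16, edgeR).

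Rps29 rose most among the called members in Rps27-FLAG cells, from 215, 229 and 264 CPM in the total to 251, 301 and 328 in the IP. Its blocked log2 fold change was 0.31 ± 0.03 (adjusted p = 1.77e-19, edgeR), against 0.34 ± 0.03 in Rps27l-FLAG cells (adjusted p = 3.41e-13), where it went from 230, 220 and 243 to 281, 295 and 301 CPM. Rps27a rose from 729, 883 and 964 to 829, 1104 and 1168 CPM in Rps27-FLAG cells and from 818, 777 and 872 to 985, 1059 and 1115 in Rps27l-FLAG cells. In the first line its totals and IP values interleaved, and in the second they did not.

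The remaining members named by their p-values kept to the same range. Within single clones, the log2 ratio of IP to total was 0.17 to 0.36 for Rps13, a platform protein, in Rps27-FLAG and 0.28 to 0.43 in Rps27l-FLAG cells. For Rps14, which lines the platform where mRNA leaves the decoding site, it was 0.13 to 0.26 and 0.28 to 0.39. Rps21, a short protein of the body, rose by 0.34 to 0.39 in Rps27l-FLAG clones, with a blocked change of 0.36 ± 0.03 there and 0.26 ± 0.03 in Rps27-FLAG cells (adjusted p = 4.28e-16 and 1.37e-16, edgeR).

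Rps3 rose from 1128, 1197 and 1342 to 1230, 1438 and 1534 CPM in Rps27-FLAG cells and from 1175, 1158 and 1185 to 1358, 1493 and 1457 in Rps27l-FLAG cells. The groups overlapped in the first line and were apart in the second. Its log2 fold change was 0.19 ± 0.03 with the block in Rps27-FLAG (adjusted p = 1.74e-09, edgeR), and 0.29 ± 0.05 without the block in Rps27l-FLAG cells (adjusted p = 0.0201). These are different fits, so their errors and p-values do not compare. Without the block Rps3 was not called in Rps27-FLAG cells, and with the block it was called in both lines.

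Members of the head and of the body and platform were counted apart. With the block, 12 of 13 tested head members and 13 of 16 tested members of the body and platform rose in Rps27-FLAG cells, with medians of 0.24 and 0.20, beside 18.3% of all transcripts called higher. In Rps27l-FLAG cells 12 of 13 and 14 of 16 rose, with medians of 0.34 and 0.30, beside 12% of all transcripts. Without the block, 0 head and 0 body and platform members were called in Rps27-FLAG, and 9 and 8 in Rps27l-FLAG cells. With the block and each library's trend with CDS length removed, a correction described further on, 0 of 13 and 2 of 16 rose in Rps27-FLAG (12.3% of all transcripts) and 10 of 13 and 12 of 16 in Rps27l-FLAG cells (9.14%). eS27 itself belongs to the 40S platform region. The 25 members called in both lines included all 17 with mostly unique windows, and Rps15a was called in Rps27l-FLAG alone (adjusted p = 0.0345 there and 0.516 in Rps27-FLAG, edgeR). The 3 called in neither included Rps7 and Rps18, and these 3 together with Rps15a were the 4 tested members under 1000 counts over all libraries.

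These 4 were also the members whose clones scattered. Rps18 had log2 ratios of 0.55, 0.08 and 0.54 in Rps27-FLAG and -0.02, 1.17 and 0.59 in Rps27l-FLAG clones, from 18 to 35 counts per tagged library. It did not pass the test in either line. All 25 members with more than 876 counts over the 15 libraries were higher in the IP than in the total of each of the 6 clones.

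**Figure D4:**
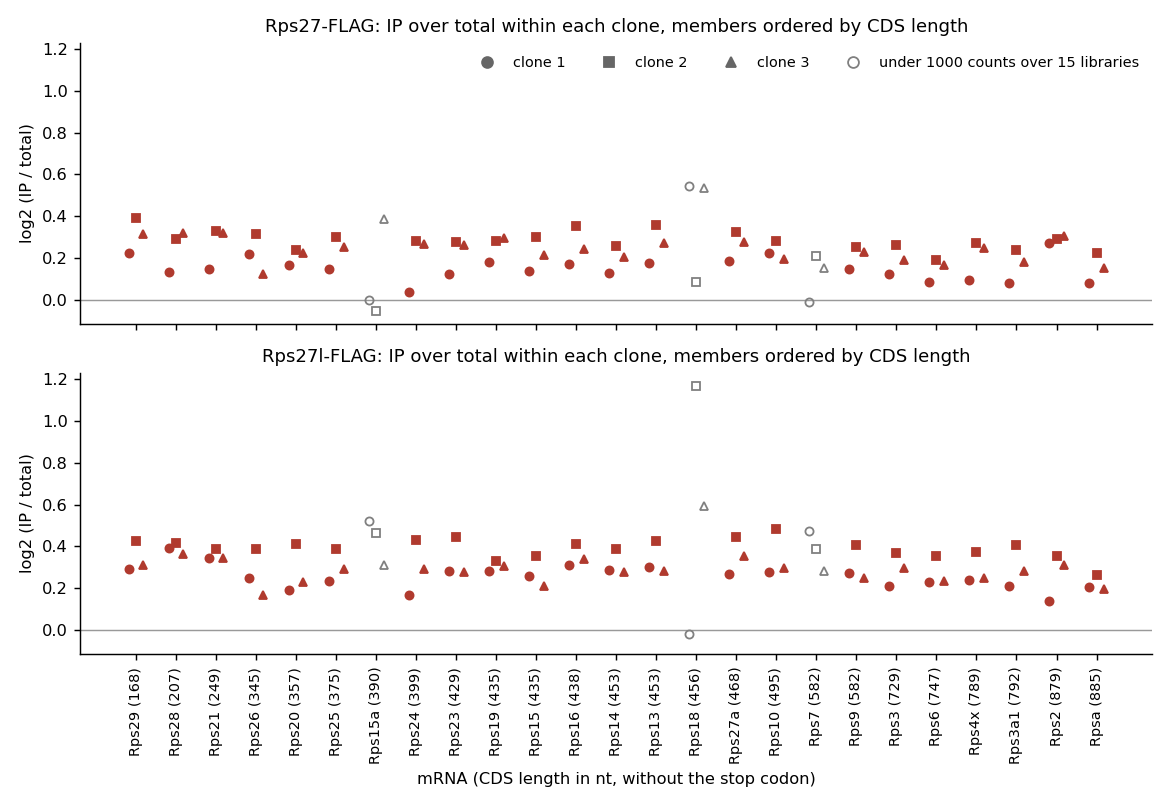
Log2 ratio of IP to total normalized counts (vertical axis) within each clone (marker shape) for 25 of the 29 tested mRNAs, ordered by CDS length in nt, with Rps27-FLAG cells above and Rps27l-FLAG cells below; open grey markers are 3 mRNAs under 1000 counts. Nearly all filled markers lie between 0 and 0.5, clone 2 is often the highest, and only open markers fall below 0 or far above the rest.

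The members are short, with CDS of 168 to 885 nt and a median of 453 nt, beside 1440 nt for the tested transcripts. IP libraries differed from totals along CDS length over all transcripts. Across 10082 tested transcripts, log2 CDS length and the mean log2 ratio of IP to total had a Pearson coefficient of -0.57 in Rps27-FLAG cells, and of -0.53 in Rps27l-FLAG cells. Over the 29 tested members it was -0.36 and -0.33, and over the 17 of them with mostly unique windows -0.83 and -0.74. These coefficients are descriptions across genes of the same 12 libraries.

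When each library's trend with CDS length was removed before the test, the lines parted. In Rps27-FLAG cells the median of the members fell from 0.22 to 0.02, beside -0.03 over all transcripts. With the block, 2 of 29 members rose then (12.3% of all transcripts were called higher, 18.2% lower). These were Rps2, which lies at the mRNA entry channel (0.18 ± 0.04, adjusted p = 7.56e-05, edgeR), and Rps4x, encoded on the X chromosome (0.08 ± 0.03, adjusted p = 0.0443). In Rps27l-FLAG cells the median fell from 0.31 to 0.15, beside -0.04 over all transcripts, and 22 of 29 members rose with the block (9.14% called higher, 13.2% lower). Rps3a1 then had the lowest p in Rps27l-FLAG cells (0.20 ± 0.03, adjusted p = 7.94e-08, edgeR), and Rps29, the shortest, no longer passed (0.06 ± 0.03, adjusted p = 0.237). Without the block, 0 of 29 were called in either line after the length trend was removed, where 0.278% of all transcripts were called higher and 1.19% lower in Rps27-FLAG and 0.0297% each way in Rps27l-FLAG cells. How much of the IP difference belongs to CDS length and how much to the identity of the mRNA was not tested.

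**Figure D5:**
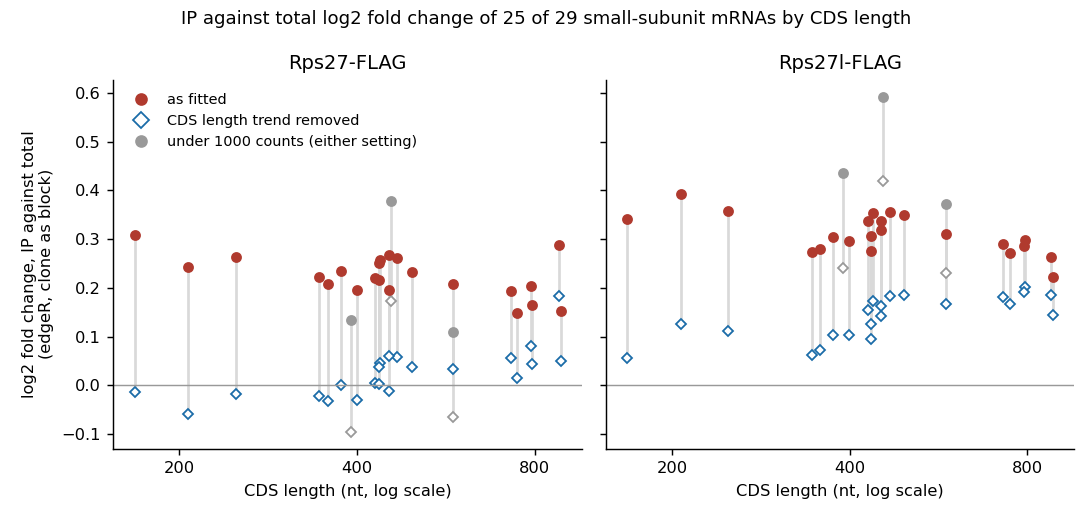
Log2 fold change of IP against total RPFs (vertical axis, edgeR with the clone as block) against CDS length in nt (horizontal axis, log scale) for 25 of the 29 tested mRNAs, as fitted (filled circles) and after removal of each library's CDS length trend (open diamonds); grey marks 3 mRNAs under 1000 counts. The diamonds of Rps27-FLAG cells lie around 0.02, the median of all 29, and those of Rps27l-FLAG cells around 0.15.

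The last comparison set the IP effect of Rps27l-FLAG against that of Rps27-FLAG cells, that is, ribosomes with one paralog against ribosomes with the other after correction for each clone's own total. No IP library of untagged WT cells was available. The paper reports less RNA in the IP of Rps27l-FLAG than of Rps27-FLAG cells. It proposes that more anti-FLAG sites stayed free in the Rps27l-FLAG IP. Whether this enters the difference between the lines was not tested. By edgeR, no member passed the criteria of the study, which were an adjusted p under 0.05 and a log2 difference above 0.25 in size (0 of 29, with 0.476% of all transcripts called higher and 0.0992% lower), nor without the limit on the size (1.36% and 0.139%). With the limit, DESeq2 called 0 members too (0.109% of all transcripts higher, 0.0% lower), as did voom (0.456% and 0.0793%), and so did the fit without the block (0.0% each way). Without the limit, DESeq2 called 0 members (0.357% and 0.0% of all transcripts) and voom 3 (1.67% and 0.119%), which were Rps6, Rps3a1 and Rps14 with voom adjusted p of 0.0105, 0.0146 and 0.0488. The difference was above 0 in 28 of 29 members (49.0% of all transcripts), with a median of 0.09, and 13 of 29 had an unadjusted p under 0.05 (12.1% of all transcripts). In 6 of 29 (Rps6, Rps7, Rps14, Rps21, Rps23, Rps28) all 3 Rps27l-FLAG clones had a higher ratio than all 3 Rps27-FLAG clones (9.08% of all transcripts).

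Of the members, Rps28 had the lowest p by edgeR. Its log2 ratio of IP to total was 0.13, 0.29 and 0.32 in Rps27-FLAG clones and 0.39, 0.42 and 0.36 in Rps27l-FLAG clones, without overlap. The difference was 0.15 ± 0.04 (adjusted p = 0.0511, edgeR). Rps16 and Rps3 differed by 0.10 ± 0.04 each (adjusted p = 0.265 and 0.254, edgeR), and Rps29 by 0.03 ± 0.05. After the length trend was removed, Rps28, Rps3a1, Rps6 and Rps14 had adjusted p under 0.05 (0.00572, 0.0162, 0.0205 and 0.0201, edgeR) with differences of 0.19, 0.16, 0.15 and 0.16, below the limit on size. With the limit, 0 of 29 were called after removal of the trend (0.188% of all transcripts higher, 0.0992% lower), and without it 4 of 29 (1.11% higher, 0.288% lower). Rps3a1 and Rps6 were named after these values were seen.

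Other mRNAs of the translation machinery were higher in the IP too, in Rps27-FLAG cells mainly in the fit with the block. Of the large-subunit mRNAs, 41 of 46 were tested. With the block, 30 rose and 2 fell in Rps27-FLAG cells, where 18.3% of all transcripts were called higher and 22.9% lower, and 33 rose and 0 fell in Rps27l-FLAG cells (12% and 19.0%), with medians of 0.20 and 0.31. Of 17 other TOP mRNAs, 14 rose and 1 fell, then 15 rose and 0 fell, with medians of 0.18 and 0.22. The 1 that fell in Rps27-FLAG cells was Rack1, which is given further on. Without the block, 0 of 41 large-subunit and 1 of 17 TOP mRNAs were called higher in Rps27-FLAG (0.327% of all transcripts), and 23 and 7 in Rps27l-FLAG cells (0.833%). With the block and the length trend removed, 2 large-subunit mRNAs rose and 4 fell in Rps27-FLAG (12.3% and 18.2% of all transcripts), with a median of -0.00, and 27 rose and 1 fell in Rps27l-FLAG cells (9.14% and 13.2%), with a median of 0.13. Of the TOP mRNAs, 9 rose and 1 fell, then 13 rose and 0 fell, with medians of 0.08 and 0.18. Of the TOP mRNAs that rose, 2 are given from the fit with the block and without removal of the length trend. Eef1a1, which delivers aminoacyl-tRNA to the ribosome, rose by 0.20 ± 0.03 and 0.39 ± 0.03 (adjusted p = 1.07e-09 and 3.12e-18, edgeR). Naca, of the nascent polypeptide-associated complex, rose by 0.26 ± 0.03 and 0.29 ± 0.03.

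The mRNAs of 40S assembly factors had no common direction. Of 27, 9 rose and 11 fell in the Rps27-FLAG line with the block, where 18.3% of all transcripts were called higher and 22.9% lower, while 6 rose and 9 fell in the Rps27l-FLAG line (12% and 19.0%), with medians of -0.05 and -0.04. Heatr1 and Utp20, very large proteins of the early pre-ribosome, fell furthest, by 0.90 and 0.75 on the log2 scale in Rps27-FLAG and by 0.69 and 0.61 in Rps27l-FLAG cells. Both were also called without the block (adjusted p = 0.00128 and 0.0146, then 0.00378 and 0.0298, edgeR). With the length trend removed and the block kept, 4 assembly factors rose and 10 fell in Rps27-FLAG (12.3% and 18.2% of all transcripts), and 4 rose and 11 fell in Rps27l-FLAG cells (9.14% and 13.2%). Heatr1 and Utp20 then fell by 0.57 and 0.36 in the Rps27-FLAG line, and by 0.44 and 0.31 in the Rps27l-FLAG line.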

How the data were processed

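Authors' steps. Per the labels and methods, reads were trimmed (cutadapt 2.4), deduplicated by molecular identifier (UMI-tools 1.0.1), cleared of rRNA, tRNA and snRNA and aligned with Bowtie2 2.3.4.3 to GRCm38/mm10 transcripts; uniquely aligned A sites were counted over each CDS, leaving off 15 codons at its start and 5 at its end. The deposited values are these raw counts.

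Steps taken here. The 13 mitochondrially encoded transcripts were removed, 10085 transcripts above 2 CPM in at least 14 libraries were kept, and IP and total libraries were TMM-normalized separately. Each comparison was fitted over all 10085 transcripts with edgeR 4.0.16 (glmQLFit; standard errors from the F statistic), calling Benjamini-Hochberg adjusted p under 0.05, plus a log2 change above 0.25 for the IP effect between lines, which had clones as blocks. Lines were compared over the 9 total libraries and IP with total over 6. Clone ratios used 0.5 added counts. CDS lengths and coordinates are those of GENCODE M21, and 28 nt windows were matched with bwa 0.7.19 allowing 2 mismatches. The length trend was a loess (span 0.5) per library. Fits were tested on simulated data. limma 3.58.1 (voom), DESeq2 1.42.0, other scalings and filters and left-out clones were alternatives. The clones were handled in parallel. The p-values and standard errors of edgeR rest on a spread estimated with information shared over all tested transcripts, so they do not measure the spread of 3 clones alone. Members and lists were chosen with earlier results of these data known. Named members were the up to 5 per direction with the lowest p in each comparison, the 3 highest and 3 lowest densities, Rps3 (blotted in the study) and Rps12. Values of 4 members are included in all sums, counts and medians and are not reported here one by one or plotted.

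Pairing. IP and total RPFs of one line and number came from one clone, which is the pairing of the block in IP comparisons. Per the methods, libraries of one number were pooled for library construction. Deviations from condition means correlated at 0.47 to 0.79 between the 6 pairs of fractions of one clone, at -0.16 to 0.71 (median 0.44) between the 24 other pairs of one number, and at -0.61 to 0.40 (median -0.31) between 60 pairs of different numbers. The pairs of Rps27l-FLAG replicate 2 with replicate 2 of the other lines were below 0, so the numbers did not pair all lines alike, and the block across lines is an alternative.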

Additional observations from a re-analysis of the deposited data

How the results depend on the processing

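With the replicate block, which pairs IP and total of a clone, members called higher went from 0 to 25 in Rps27-FLAG and from 17 to 26 in Rps27l-FLAG cells, and to 2 and 22 with the CDS length trend also removed; the block added after seeing the data to fits without 1 clone gave 25 in Rps27-FLAG each time and 25 to 26 in Rps27l-FLAG cells. It changed no other call of a member in the 3 comparisons of total RPFs. Leaving out 1 clone without the block gave 0 to 23 calls in Rps27-FLAG (23 without clone 1) and 0 to 19 in Rps27l-FLAG cells. Removing the length trend alone left 0 calls in Rps27l-FLAG cells and moved the median log2 fold change to 0.0239 in Rps27-FLAG (0.0232 with the block) and to 0.153 in Rps27l-FLAG cells (0.154 with the block). For the IP effect between the lines, removing both the length trend and the size limit, chosen after seeing the data, gave 4 calls, voom without the size limit, likewise chosen after seeing the data, gave 3 and DESeq2 without it 0, and the fit with no replicate block gave a median of 0.09 and 0 calls. No member was called lower in these comparisons under the alternatives run. The difference in summed share changed sign when 1 replicate number was left out, to -0.0376 percentage points for Rps27-FLAG against WT and 0.0081 between the tagged lines without replicate 3, and to 0.0132 for Rps27l-FLAG against WT without replicate 2; over the left-out numbers these differences ran from -0.0376 to 0.0363, from -0.0681 to 0.0081 and from -0.0318 to 0.0132. Per unique window instead of per kb, the highest of the 17 densities was 1.87 times the lowest; the cause was not tested.

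Rps7, Rps15a and Rps18 had as few as 18 counts in a library, and their standard errors were larger than those of the other named members. Densities below full uniqueness are lower bounds. With 3 clones per line, exact tests of a summed share cannot reach 0.05.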

Other observations

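Rack1 is no ribosomal protein by name but sits on the 40S head and is encoded by a TOP mRNA. With the block it was called lower in Rps27-FLAG cells, as were 2 large-subunit mRNAs and 22.9% of all transcripts, but no member. In Rps27l-FLAG cells it was called higher, as were most members. Its footprint density in WT total RPFs was 1885, 2031 and 2125 CPM per kb, within the range of the members. In Rps27-FLAG clones it went from 1592, 1813 and 2007 CPM in the total to 1416, 1773 and 1844 in the IP, lower in each clone, and in Rps27l-FLAG clones from 1692, 1619 and 1853 to 1769, 1815 and 1905, higher in each clone. With the block, Rack1 changed by -0.11 ± 0.03 (adjusted p = 0.00192, edgeR) in Rps27-FLAG and by 0.09 ± 0.03 (adjusted p = 0.00675) in Rps27l-FLAG cells. The difference between the lines was 0.20 ± 0.04 (adjusted p = 0.000574), past the threshold on p and below the study's limit on size. Rack1 was singled out after its values were seen.

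Rps27l, the tagged paralog itself, had 148, 149 and 149 CPM in WT total RPFs and 133, 142 and 149 in Rps27l-FLAG total RPFs. Its density of 769 to 774 CPM per kb in WT was under those of the 17 members with mostly unique windows, although all 165 of its windows were unique. In the IP it rose by 0.23 ± 0.04 in Rps27-FLAG and 0.19 ± 0.04 in Rps27l-FLAG cells with the block (adjusted p = 7.51e-09 and 6.76e-05, edgeR).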
